A study of Bos taurus with 8 samples.

Results

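Within satellite cells (SCs) grown from bovine muscle, the cells with abundant transcripts of MYOG were set against the cells with almost none. Members were chosen by the raw number of MYOG unique molecular identifiers (UMIs) in each cell, 10 or more for MYOG-high SCs and 0 or 1 for MYOG-low SCs, among cells that carried the authors' SC label in the sorted cultures of donors 5, 6 and 10 at passages 2 and 5. Of 6315 such SCs, 367 were MYOG-high and 5724 were MYOG-low, and 224 lay between the limits and entered no test. The whole series holds 36129 cells that passed quality control. MYOG chose the cells, so its own level is a description and not a result.

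The series followed muscle-derived cells of Belgian Blue cattle from tissue to late passage by single-cell RNA sequencing, pooling the cells of all donors at each timepoint. The labels list 2 runs for passage 2 and 2 for passage 5, and 1 count matrix of each passage was analysed here and is called its library; whether that matrix joins both runs is not given in the sources used here. Donor 5 was a female calf, donor 6 a male adult and donor 10 a male calf, and their cells had been sorted by FACS as ITGA7+/ITGA5- SCs after 72 h in culture and then grown in serum-free growth medium on laminin. All these cells were therefore proliferating cultures without a differentiation step, which by the paper's account were sampled as they neared confluency. By flow cytometry the paper found that the committed share of SCs rose late in a passage. Cells of the same donor at both passages come from the same animal. Passage and library cannot be told apart. The unit of replication was the sum of UMIs over the cells of 1 class, donor and passage, giving 6 pairs of sums that come from 3 animals, so p-values treat the passages of an animal as separate pairs.

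MYOG encodes myogenin, a basic helix-loop-helix transcription factor that is switched on when a proliferating myoblast commits to differentiation. It acts after MYF5 and MYOD1, together with the MEF2 factors, on the genes of the contractile apparatus. Committed myoblasts normally leave the cell cycle and then fuse into multinucleated fibers.

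The sums of MYOG-high cells held 313300 to 3675860 UMIs and those of MYOG-low cells 9213040 to 30992700. MYOG-high cells made up 11.3% of the SCs of donor 5, 5.44% of donor 6 and 0.918% of donor 10 at passage 2. At passage 5 the shares were 8.04%, 3.42% and 7.80% in the same order. Donor 10 at passage 2 thus had the fewest members, 10 cells, and every other pair had at least 36. When each cell was thinned to 10000 UMIs and the limit set at 4, which left out 30 to 124 cells per culture, the shares ran from 1.23% to 11.1% in the same cultures. FAPs (fibro-adipogenic progenitors), which should lack MYOG, had at least 1 MYOG UMI in 8.04% of cells of the passage 2 library (median 29540 UMIs per cell) and in 6.14% at passage 5 (median 22329). At 10 or more UMIs were 0 of 4987 FAPs, which allows a share of up to 0.0602%, and 1 of 6819. Of the MYOG-low cells, 6.65% to 9.69% had exactly 1 UMI, which is close to that background.

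Depth per cell was set side by side for the classes. Median UMIs per cell were 19698 to 32738.5 in the MYOG-high cells and 20268.5 to 27824 in the MYOG-low cells, and the MYOG-high median was the higher one in 5 of 6 pairs, donor 6 at passage 2 being the exception. The median percent of mitochondrial UMIs was 3.29 to 5.64 in MYOG-high and 2.85 to 4.35 in MYOG-low cells, higher in MYOG-high cells in 5 of 6 pairs. Passages 2 and 5 shared 24 cell barcodes among 8966 and 10405 kept cells. SCs formed 93.9% to 99.4% of the cells of a culture except in donor 5 at passage 5, where they formed 43.0%.

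The first question was whether the authors' cell cycle calls differed between the classes. The share of cells called G1 ranged from 66.7% to 88.1% in MYOG-high cells and from 37.3% to 62.6% in MYOG-low cells, so the classes did not overlap. The means were 75.8% ± 7.38 and 51.3% ± 9.60 (SD, n = 6 pairs), and the difference of 24.6 ± 8.76 percentage points had the same sign in 6 of 6 pairs (exact 2-sided sign-flip permutation test, p = 0.03125, the smallest p that 6 pairs can give). The calls are scores over S and G2/M transcripts, so they read the same transcripts as the cell cycle lists further on. Any part of free RNA in them was not tested.

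**Figure D1:**
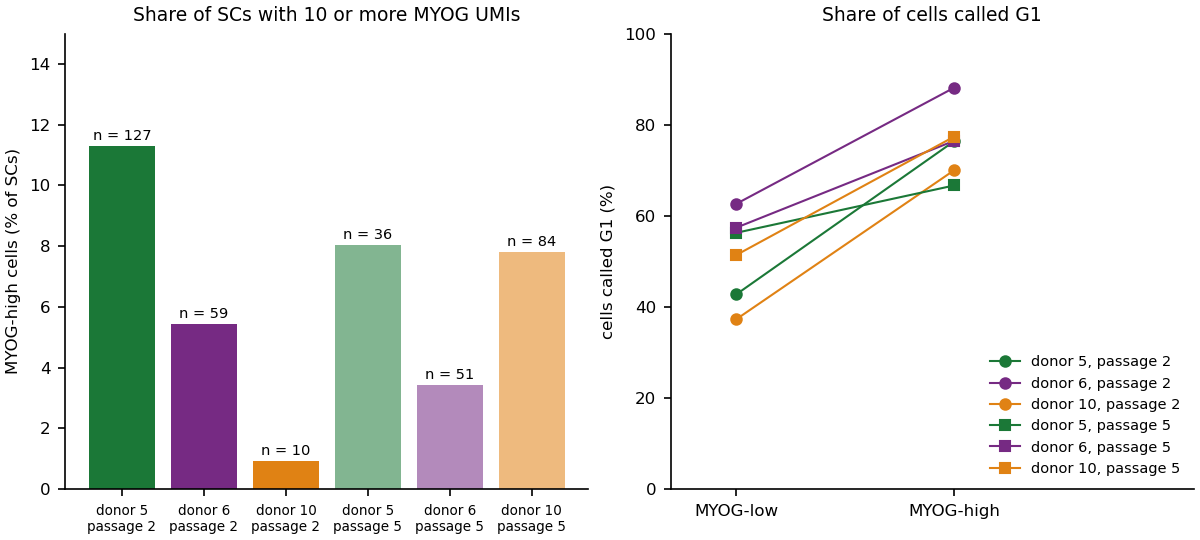
Left, MYOG-high cells as a percentage of the SCs of each donor and passage, with the number of cells above each bar. Right, percentage of cells called G1 in MYOG-low and MYOG-high cells, 1 line per pair; all 6 lines rise, from 37.3% to 62.6% up to 66.7% to 88.1%.

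Across all genes, MYOG-high and MYOG-low SCs differed widely. Of 10433 genes tested, 802 (7.69%) were called higher and 1192 (11.4%) lower in MYOG-high cells, by edgeR's quasi-likelihood test with the pair as a block. A call needed a Benjamini-Hochberg adjusted p under 0.05 together with a log2 fold change (log2FC) beyond 1 in either direction. The median log2FC of all genes tested was -0.05. Levels are given as CPM, the count of a gene relative to the UMI total of its sum after TMM scaling, as mean ± SD over 6 pairs, and fold changes with the standard error (SE) of the fit.

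**Figure D2:**
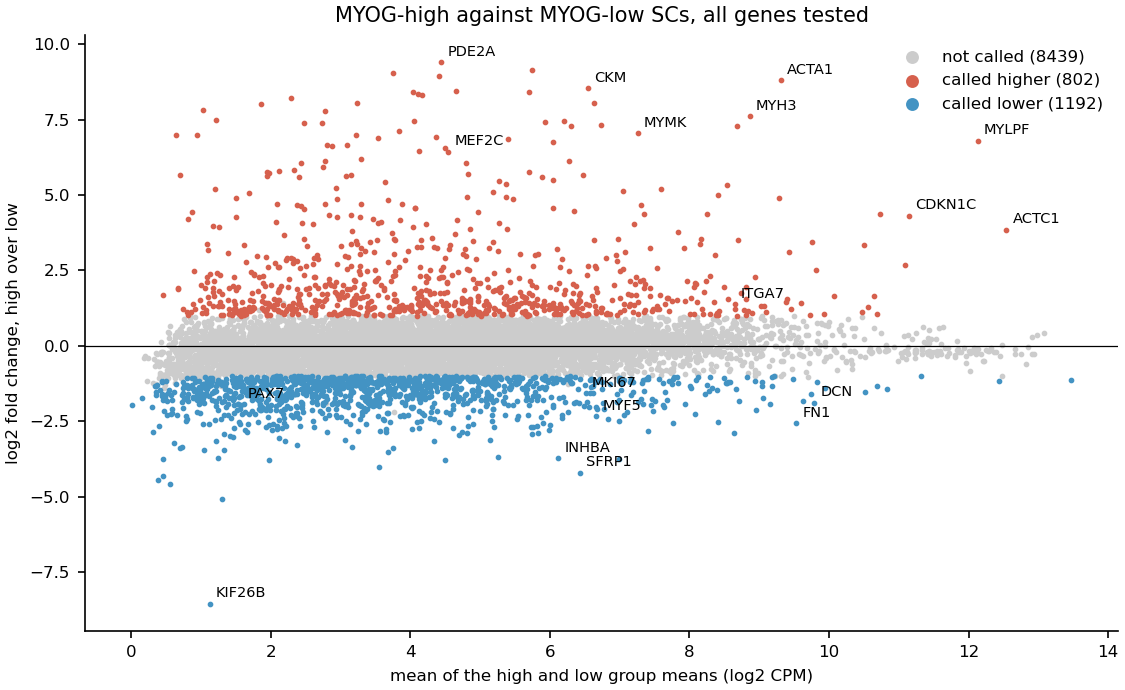
Each point is 1 of the 10433 genes tested, with its mean level on the x axis (log2 CPM) and its log2FC on the y axis. Genes called higher (802) reach a log2FC of 9.41 at PDE2A, and genes called lower (1192) are led by KIF26B, which had 0 counts in MYOG-high cells.

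The genes with the largest increase among those that rose in all 6 pairs were led by PDE2A, LMOD3 and SMPX. PDE2A, a phosphodiesterase that breaks down cyclic nucleotides, had 29.0 to 73.6 CPM in MYOG-high cells (median 37.5) and 0 to 0.102 CPM in MYOG-low cells, a log2FC of 9.41 (SE 0.29). LMOD3, a leiomodin that nucleates actin filaments, had 62.3 to 197 CPM against 0.0907 to 0.571 CPM (log2FC 9.13, SE 0.18). ACTA1, the skeletal alpha actin of adult fibers, had 427 to 2304 CPM (median 1124) against 1.91 to 3.20 CPM (log2FC 8.81, SE 0.45, adjusted p = 2.35e-05). These genes were picked for rising in all 6 pairs and for their fold, so the separation of their classes is no separate result. Of all 10433 genes tested, 2073 rose and 2549 fell in all 6 pairs. The other genes of the leading 10 were SMPX, a small muscle protein (log2FC 9.03), UNC45B, a myosin chaperone (8.94), CKM, muscle creatine kinase (8.53), LRRN1, a leucine-rich repeat membrane protein (8.44), CACNG1, a subunit of the muscle calcium channel (8.40), SERPINA1, a protease inhibitor (8.40), and TRIM54, a sarcomeric ubiquitin ligase (8.36). All were close to 0 in MYOG-low cells, with mean levels of at most 0.429 CPM apart from ACTA1 at 2.59 CPM, so their fold changes rest on few MYOG-low counts. Apart from ACTA1 they passed the filter on low counts only through the MYOG-high class, so they had to differ.

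Myosin and the other thick filament genes rose together. Of 21 listed members 10 passed the filter on low counts, and all 10 of these rose, with a median log2FC of 6.96. Over all genes 7.69% rose and 11.4% fell. A member that passes only through the class where it is high had to differ, and 6 of the 10 were below 1 CPM in MYOG-low cells. MYH3, the embryonic myosin heavy chain, had 575 to 1356 CPM in MYOG-high cells (median 914) and 0.907 to 9.38 CPM in MYOG-low cells (log2FC 7.61, SE 0.60, adjusted p = 0.000165). Its lowest MYOG-low level was too low for the filter, so MYH3 did not pass on its MYOG-low sums alone either. MYLPF, the fast regulatory light chain, had 6067 to 13653 CPM against 13.5 to 281 CPM (log2FC 6.80, SE 0.72). MYL2, the slow and cardiac light chain, spread most between pairs, from 3.23 to 523 CPM in MYOG-high cells (log2FC 7.41, SE 1.04), while the M-line proteins MYOM2 and MYOM3 had log2FC of 7.45 and 7.40. The adult fast heavy chains MYH1, MYH2 and MYH4 were not tested, with 1 count each over all MYOG-high cells. MYH7, the slow heavy chain, was not tested either, with 249 counts in MYOG-high and 7 in MYOG-low cells.

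Thin filament genes showed the same direction with exceptions. Of 19 tested among 21 listed, 15 rose and 2 fell, with a median log2FC of 4.88, and 4 of the 19 were below 1 CPM in MYOG-low cells. Over all genes 7.69% rose and 11.4% fell, so the 2 that fell lie close to the share of all genes. In passage 2 alone 9 of the 19 were called higher and 1 lower, with a median of 4.62, while of all genes 7.22% were called higher and 9.08% lower. TNNI2, fast troponin I, had 61.4 to 568 CPM in MYOG-high cells (median 139) and 0.272 to 0.712 CPM in MYOG-low cells (log2FC 8.05, SE 0.35). LMOD2, another leiomodin, followed at 7.79. TNNC1, slow and cardiac troponin C, had 719 ± 198 CPM against 22.7 ± 20.6 CPM (log2FC 5.32, SE 0.64), and was not called in passage 2 alone (log2FC 5.31). ACTC1, the cardiac alpha actin that developing muscle uses, was chosen after its values were seen, as was nebulin (NEB). ACTC1 had 10945 ± 1105 CPM against 968 ± 662 CPM (log2FC 3.85, SE 0.59, adjusted p = 0.00305), and NEB had 1208 ± 358 against 175 ± 111 CPM (log2FC 3.11). The tropomyosins TPM1 and TPM2 did not reach the fold limit (log2FC 0.60 and 0.54). The 2 members that fell were TPM3, a tropomyosin of slow fibers and non-muscle cells (log2FC -1.04), and TNNI3, cardiac troponin I (-1.20). Neither was called lower without donor 10 at passage 2, within the depth range of the MYOG-high cells or with the upper limit at 5 UMIs.

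Genes of the Z disc, titin anchoring and muscle chaperones rose in 17 of 19 tested of 27 listed, and none fell (median log2FC 3.76). Over all genes 7.69% rose and 11.4% fell. Of these 19 genes 7 were below 1 CPM in MYOG-low cells, where a gene that passes the filter can hardly fall. UNC45B and TRIM54 led this list, followed by the Z disc crosslinker ACTN2 with 13.2 to 76.9 CPM against 0 to 0.232 CPM (log2FC 8.32, SE 0.34) and PDLIM3 (7.30, SE 0.31). DES, the muscle intermediate filament desmin, had 1241 to 2539 CPM in MYOG-high cells (median 1364) and 40.5 to 339 CPM in MYOG-low cells (log2FC 3.43, SE 0.43, adjusted p = 0.00131). DES was thus already present in MYOG-low cells. In passage 2 alone DES was not called (log2FC 3.87). TTN was not analysed here.

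Genes of excitation and calcium handling rose in 12 of 13 tested of 19 listed (median log2FC 4.84), and 6 of the 13 were below 1 CPM in MYOG-low cells. Over all genes 7.69% rose and 11.4% fell. CACNG1 led, and SLN, a small inhibitor of the calcium pump, had 104 counts in all MYOG-high cells and 3 in all MYOG-low cells, a ratio per UMI of 510 with a 95% exact counting interval of 170 to 2512. KLHL31, a kelch protein of muscle, and CASQ2, the calcium store protein calsequestrin, had log2FC of 6.98 (SE 0.36) and 6.93 (SE 0.61). ATP2A2, the calcium pump that most cells use, was not called (log2FC -0.67).

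Of the genes of the neuromuscular synapse 7 of 9 tested of 12 listed rose and none fell, with a median log2FC of 1.84. Over all genes 7.69% rose and 11.4% fell. Among the 9, 1 was below 1 CPM in MYOG-low cells. CHRNG, the fetal gamma subunit of the acetylcholine receptor, had 426 to 573 CPM (median 531) against 8.92 to 94.1 CPM (log2FC 3.37, SE 0.52, adjusted p = 0.00306). ACHE, acetylcholinesterase, had a log2FC of 5.64 (SE 0.39), the receptor subunit CHRND 4.18 (SE 0.26) and the receptor kinase MUSK 3.70 (SE 0.17). CHRNE, the adult subunit, was not tested, with 5 counts in MYOG-high cells. CHRNG was not called without donor 6 (log2FC 3.26, adjusted p = 0.0544 in edgeR) or in passage 2 alone (log2FC 3.98, adjusted p = 0.0971).

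Muscle energy genes divided. Of 16 tested among 18 listed 8 rose, 1 fell and 7 were not called (median log2FC 0.93), while of all genes 7.69% rose and 11.4% fell. Of the 8 that rose, CKM, PYGM, CKMT2 and myoglobin (MB, log2FC 4.05, chosen after its values were seen) were below 1 CPM in MYOG-low cells. CKM had 31.6 to 332 CPM in MYOG-high cells (median 174) and 0.170 to 0.577 CPM in MYOG-low cells. PYGM, muscle glycogen phosphorylase, followed at a log2FC of 6.05 (SE 0.44), CKMT2, mitochondrial creatine kinase, at 5.58 (SE 0.35) and COX8B, a muscle subunit of cytochrome oxidase, at 4.95 (SE 0.21). LDHA, lactate dehydrogenase A, fell from 208 ± 48.0 to 85.4 ± 24.0 CPM (log2FC -1.21).

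**Figure D3:**
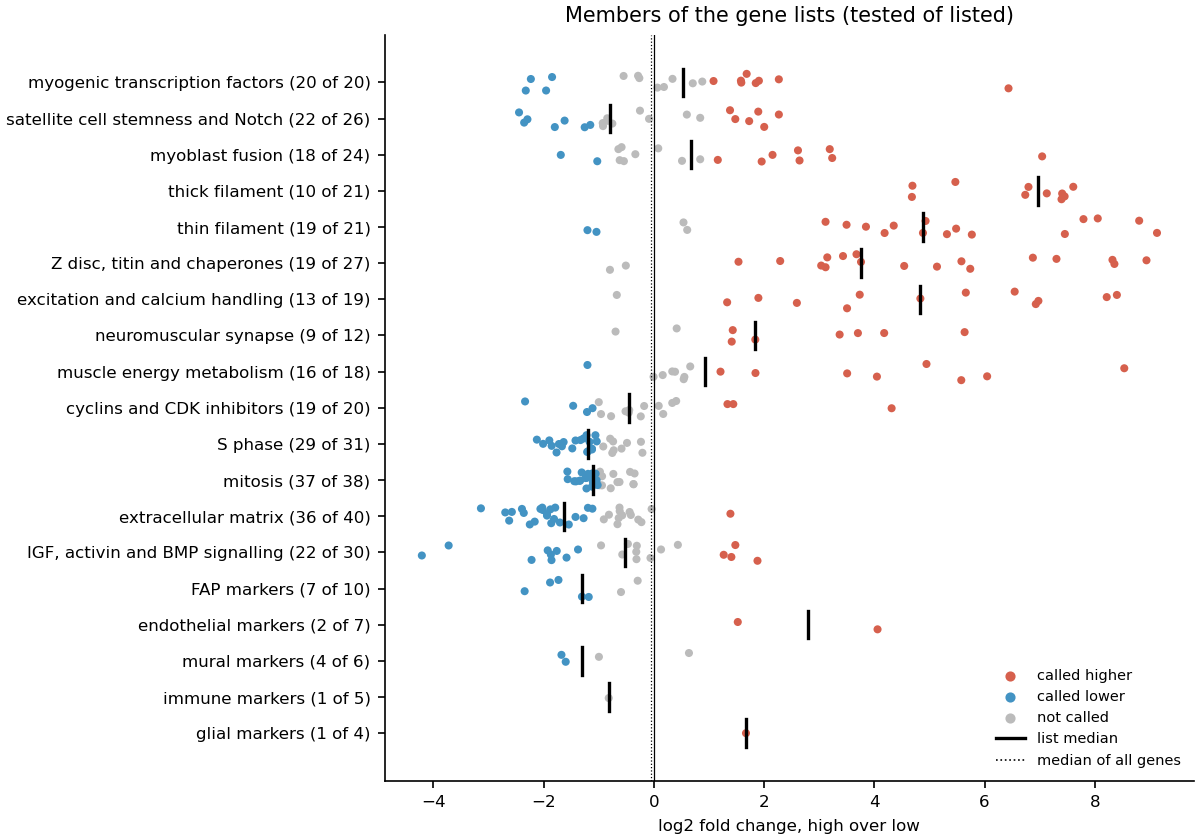
Log2FC of each tested member of 19 gene lists, with the number tested and listed beside the name; red points were called higher, blue lower and grey not called, black bars are list medians and the dotted line is the median of all genes. The contractile lists lie to the right (thick filament median 6.96), and S phase (-1.19), mitosis (-1.10) and extracellular matrix (-1.62) lie to the left.

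Among myogenic transcription factors 8 of 20 rose and 4 fell, all 20 listed being tested (median log2FC 0.52), while of all genes 7.69% rose and 11.4% fell. MEF2C, a partner of myogenin on muscle genes, had 15.8 to 77.0 CPM (median 42.7) against 0.228 to 0.611 CPM (log2FC 6.43, SE 0.32). It was the 1 listed factor below 1 CPM in MYOG-low cells, passed the filter only through the MYOG-high class and therefore had to differ. TCF12, an E protein that dimerizes with the myogenic factors, rose in every pair (log2FC 2.27, SE 0.09), and MYOD1, the determination factor, had 308 ± 35.9 CPM against 106 ± 41.3 CPM (log2FC 1.59, SE 0.19, adjusted p = 0.000274). MYF5, the early determination factor, went the other way, with 16.1 to 47.2 CPM in MYOG-high cells (median 35.3) and 149 to 219 CPM in MYOG-low cells (log2FC -2.32, SE 0.12, adjusted p = 2.88e-13). PAX7, the defining factor of the SC, was low in both classes, with 11 counts over all MYOG-high cells and 652 over all MYOG-low cells (1.28 ± 1.08 against 4.67 ± 0.838 CPM, log2FC -1.96, SE 0.40, adjusted p = 0.000248). PAX7 passed the filter on low counts only through the MYOG-low class, so it could only be called lower. PAX3, its paralog, had a log2FC of -2.23 (SE 0.19). MYF6, the factor linked to late differentiation, was not called (13.8 ± 8.95 against 22.6 ± 3.65 CPM, log2FC -0.55, SE 0.22, adjusted p = 0.0544).

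Of the genes tied to SC stemness and Notch signaling 6 rose, 7 fell and 9 were not called, among 22 tested of 26 listed (median log2FC -0.80). The shares over all genes were 7.69% higher and 11.4% lower. Receptors and ligands of the Notch pathway did not move together. NOTCH3 had 0 to 9.09 CPM in MYOG-high and 20.0 to 37.3 CPM in MYOG-low cells (log2FC -2.29, SE 0.18), NOTCH2 fell from 48.0 ± 13.5 to 8.70 ± 3.37 CPM (log2FC -2.35, SE 0.17), and the ligand JAG1 fell likewise (log2FC -2.45, SE 0.49). The ligand DLL1 rose, from 7.38 ± 1.86 to 36.8 ± 10.9 CPM (log2FC 2.27, SE 0.15), and so did the receptor NOTCH1 (log2FC 2.00), which was chosen after its values were seen. Of the surface proteins used to sort or mark SCs, ITGA7, the laminin-binding integrin, had 579 ± 48.4 CPM against 225 ± 47.3 CPM (log2FC 1.38, SE 0.09, adjusted p = 6.49e-11) and NCAM1 had 360 ± 94.2 against 129 ± 37.3 CPM (log2FC 1.48, SE 0.11). CD151, a tetraspanin that the paper uses to mark its quiescent SCs, was not called (149 ± 32.1 against 173 ± 35.7 CPM, log2FC -0.25, SE 0.17, adjusted p = 0.252). MYOG-low cells were not divided here into the quiescent and activated states of the paper. ITGA7 was a gate of the sort that both classes had passed.

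Of the genes of myoblast fusion 8 of 18 tested of 24 listed rose and 2 fell (median log2FC 0.68). Over all genes 7.69% rose and 11.4% fell, so the 2 that fell lie close to the share of all genes. Among the 18, 1 was below 1 CPM in MYOG-low cells. MYMK, the membrane protein myomaker that fusion requires, had 242 to 359 CPM in MYOG-high cells (median 310) and 0.484 to 3.68 CPM in MYOG-low cells (log2FC 7.04, SE 0.39, adjusted p = 3.2e-05). MYMX, its partner myomixer, had 2.31 to 11.3 CPM against 0.333 to 1.48 CPM (log2FC 2.61, SE 0.34, adjusted p = 1.03e-06). MYMX passed the filter on low counts only through the MYOG-high class and therefore had to differ. MYMK did not pass that filter on its MYOG-low sums alone. CAV3, the muscle caveolin (log2FC 3.24), ELMO1, a partner of the DOCK exchange factors (3.19), and DYSF, the membrane repair protein dysferlin (2.64), rose in all 6 pairs. In passage 2 alone CAV3 was not called (log2FC 3.07). The 2 members that fell were CDH2, N-cadherin (log2FC -1.69), and EHD2, a membrane remodeling ATPase (-1.03).

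Among cyclins and cell cycle inhibitors 3 of 19 tested rose and 4 fell (median log2FC -0.45), while of all genes 7.69% rose and 11.4% fell. CDKN1C, the inhibitor p57, had 3692 to 4884 CPM in MYOG-high cells (median 4207) and 97.4 to 319 CPM in MYOG-low cells (log2FC 4.31, SE 0.32, adjusted p = 0.000118). CDKN1A, the inhibitor p21, had 482 ± 117 against 175 ± 17.0 CPM (log2FC 1.44, SE 0.09, adjusted p = 2.69e-12). The third member of the list of cyclins and inhibitors that rose was RB1, the retinoblastoma protein (log2FC 1.34), while CDKN2B, CDK2, CCND1 and GADD45A fell and 12 of 19 tested of 20 listed were not called. CDKN2B, the inhibitor p15, had 5 counts in all MYOG-high cells (log2FC -2.34, SE 0.51). It passed the filter on low counts only through the MYOG-low class, so it could only be called lower.

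Of the S phase genes 20 of 29 tested of 31 listed fell and none rose (median log2FC -1.19), and of the mitosis genes 24 of 37 tested of 38 listed fell and none rose (median -1.10). Over all genes 11.4% fell and 7.69% rose. With the upper limit lowered to 5 UMIs, 13 of 29 and 8 of 37 fell (medians -0.94 and -0.71), and none rose, while of all 10491 genes 969 (9.24%) were lower and 679 (6.47%) higher. MKI67, the proliferation antigen, had 111, 57.7 and 71.0 CPM in MYOG-high cells of donors 5, 6 and 10 at passage 2 and 5.66, 7.02 and 30.4 CPM at passage 5. The MYOG-low cells had 225, 173 and 211 CPM at passage 2 and 63.5, 82.7 and 59.7 CPM at passage 5 (log2FC -1.57, SE 0.33, adjusted p = 0.00969). Both classes were therefore lower at passage 5, and MYOG-high cells were lower than MYOG-low cells in all 6 pairs. In passage 5 alone MKI67 was not called (log2FC -1.94, adjusted p = 0.155 in edgeR). Within the MYOG-high cells of the 6 cultures the level was uneven: cells with 10 to 19 UMIs had 125 CPM of MKI67 without TMM scaling and cells with 20 or more had 38.8, against 152 in MYOG-low cells. Of the 303 MKI67 counts at 10 to 19 UMIs, 227 came from donor 5 at passage 2. In that culture MKI67 was close to its MYOG-low level (238 against 234 CPM). It was above the MYOG-low level in donor 10 at passage 2, with 3 such cells, and at passage 5 (78.6 against 58.2 CPM). It was below that level in donor 5 at passage 5 and in donor 6 at both passages (0 against 178 CPM at passage 2). At 20 or more UMIs MKI67 was below the MYOG-low level in all 6 cultures. TOP2A, the topoisomerase of dividing cells, was also lower (log2FC -1.56, SE 0.45, adjusted p = 0.0326 in edgeR). At 10 to 19 UMIs TOP2A was above the MYOG-low level in donor 10 at both passages. It was below that level in donor 5 at both passages (221 against 259 CPM at passage 2). Donor 6 had 0 TOP2A counts in this class at both passages. The call was lost without donor 5, 6 or 10 (adjusted p = 0.147, 0.067 and 0.102 in edgeR) and in 10 settings in all, among them each of 4 single pairs left out and passage 5 alone. The log2FC in those settings was -1.36 to -2.32. Among cells called G1 alone, where fewer members passed the filter, 3 of 17 S phase genes and 2 of 18 mitosis genes fell and 1 mitosis gene rose, with medians of -0.33 and -0.37. Over all genes the same restriction gave 816 higher (8.54%) and 1214 lower (12.7%) of 9551. The G1 call is itself scored on S and G2/M transcripts, so this restriction selects cells by the listed genes and their lower counts there are no separate result.

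**Figure D4:**
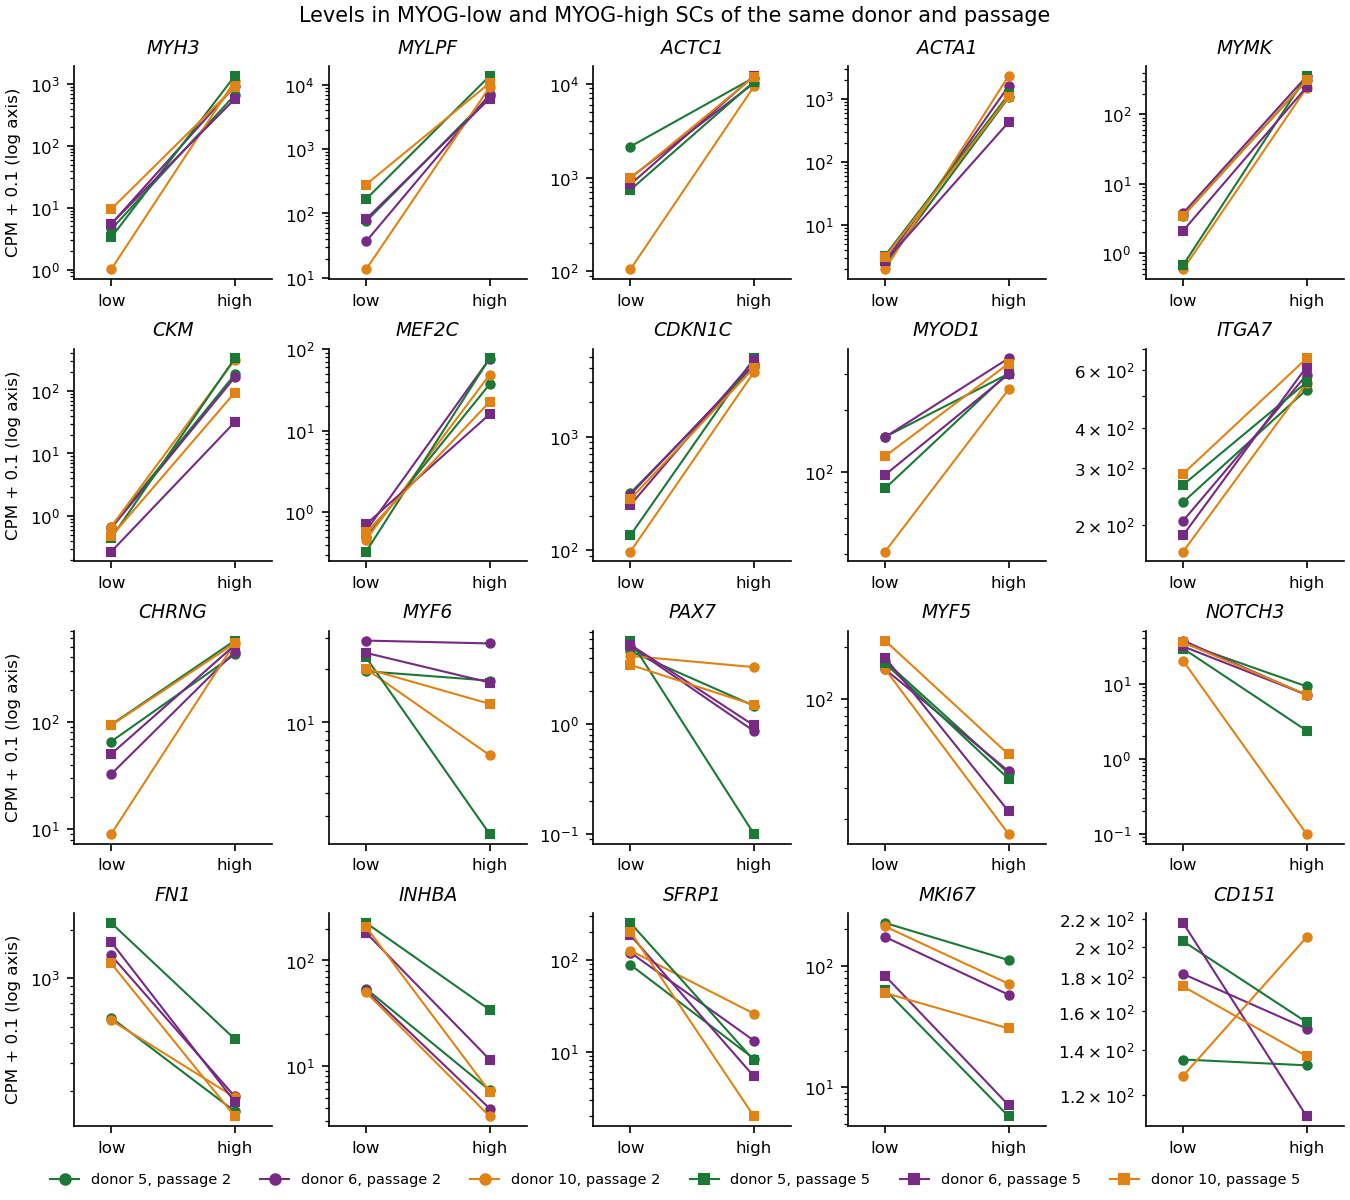
Levels of 20 genes (CPM + 0.1, log axis) in MYOG-low and MYOG-high cells, 1 line per donor and passage. The contractile, fusion and inhibitor genes rise in every pair, MYF6, PAX7, MYF5, NOTCH3, FN1, INHBA, SFRP1 and MKI67 fall in every pair, and CD151 rises in 1 of 6.

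Genes of the extracellular matrix fell in 23 of 36 tested of 40 listed and 1 rose (median log2FC -1.62), while of all genes 11.4% fell and 7.69% rose. FN1, fibronectin, had 140 to 421 CPM in MYOG-high cells (median 178) and 551 to 2203 CPM in MYOG-low cells (log2FC -2.58, SE 0.27, adjusted p = 0.000476). The proteoglycan VCAN (log2FC -3.14, SE 0.24) and the laminin chains LAMA4 (-2.70, SE 0.15) and LAMB1 (-2.63, SE 0.23) fell in all 6 pairs, as did 2549 of all 10433 genes tested. SPARC, a collagen-binding glycoprotein (log2FC -0.28), and COL1A2, a chain of collagen I (-0.57), were among the 12 not called. The member that rose was COL8A1 (log2FC 1.39, 4 of 6 pairs). No member was called higher in many other settings, among them DESeq2, without the filter, without the block, and without donor 6 or donor 10. The same held in passage 5 alone and with the upper limit at 5 or 20 UMIs.

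Signaling genes of the IGF, activin and BMP pathways fell in 9 and rose in 4 of 22 tested of 30 listed (median log2FC -0.52). The shares over all genes were 11.4% lower and 7.69% higher. INHBA, the activin A subunit, had 3.23 to 34.0 CPM in MYOG-high cells (median 5.70) and 49.8 to 227 CPM in MYOG-low cells (log2FC -3.72, SE 0.28, adjusted p = 9.56e-06). SFRP1, a secreted inhibitor of Wnt ligands, had 1.87 to 25.8 CPM against 88.4 to 252 CPM (log2FC -4.21, SE 0.45, adjusted p = 0.000555), and GREM1, a BMP antagonist, had a log2FC of -2.22 (SE 0.32). IGFBP3, an IGF-binding protein (log2FC -1.93, SE 0.47), was not called in 7 settings, among them without donor 5, without donor 6, without the block and in passage 2 alone, with a log2FC of -0.99 to -2.01. Those that rose were IGF2, TGFB1, IGF1R and TGFB2, with log2FC of 1.88, 1.48, 1.41 and 1.27, chosen after their values were seen.

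The genes with the largest decrease that fell in all 6 pairs were mostly rare in MYOG-high cells. A gene that passes the filter only through the MYOG-low class could only be called lower. KIF26B, a kinesin family member, had 618 counts in MYOG-low and 0 in MYOG-high cells, so that with 3 counts as the floor over all MYOG-high cells it was at least 14.0-fold lower. ANGPT1, an angiopoietin, had 1 count in MYOG-high and 595 in MYOG-low cells, a ratio per UMI of 40.5 (95% exact counting interval 7.23 to 1601). SHPK, a sugar kinase, and PTGER4, a prostaglandin receptor, also had 1 count each in MYOG-high cells and 381 each in MYOG-low cells, with a ratio of 25.9 (4.62 to 1026) for both. FABP4, the fatty acid-binding protein of adipocytes, was more abundant, with 2.27 to 25.8 CPM in MYOG-high and 76.3 to 428 CPM in MYOG-low cells (log2FC -3.76, SE 0.20). WNT5B, a Wnt ligand (log2FC -4.02), BDNF, a neurotrophin (-3.80), and C5AR2, a complement receptor (-3.79), were also among the leading 10, as was SFRP1.

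Markers of other cell types moved with the classes, while of all genes 7.69% were called higher and 11.4% lower. Of the FAP markers 5 of 7 tested of 10 listed were called lower in MYOG-high cells, among them THY1 (log2FC -2.34), DCN (-1.88, 368 ± 68.9 against 1400 ± 494 CPM) and LUM (-1.73). Their summed level was 508 to 741 CPM (without TMM scaling) in MYOG-high and 1375 to 3068 in MYOG-low cells, and the defining marker PDGFRA was not called (log2FC -0.60). Of 6 mural markers, 4 were tested and CNN1 and TAGLN fell, CNN1 not being called without the block (log2FC -1.54), of 5 immune markers only CD68 was tested and it was not called, and of 4 glial markers S100B rose (log2FC 1.67) while the defining marker SOX10 was at 0 counts in both classes. S100B was not called without donor 5, without donor 6 or in passage 5 alone (log2FC 1.26 to 1.52), nor in the unsorted cultures described further on (0.81). Of 7 endothelial markers CLDN5 (log2FC 4.06, 72.7 ± 13.0 against 4.58 ± 2.44 CPM) and F11R (1.52) rose, while the defining markers PECAM1, CDH5, TEK and KDR were at 0 counts in MYOG-high cells. F11R was higher in 4 of 6 pairs and was not called without donor 5 (log2FC 1.32). It encodes JAM-1, which with CD45 (PTPRC), ITGA5 and ITGA7 made up the antibody panel of the sort. The part of FAPs or of their free RNA in the lower matrix genes was not tested.

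The label of these cells as committed was checked against 10 genes that a list of the committed state held (NEB, DES, ACTC1, CDKN1C, TNNC2, TNNT2, TNNC1, MYLPF, MYMK and MYH3), and 10 of 10 rose. In passage 2 alone, 4 of 10 were called higher, with a median log2FC of 4.59 against 4.62 in all pairs, while of all genes 7.22% were called higher and 9.08% lower. The list was chosen with earlier results of these cells known, so its count is no independent evidence. Detection in single cells was compared for 4 of these genes together with ACTA1 and CKM. In cells thinned to 10000 UMIs, ACTC1 and CDKN1C had a UMI in 100% of MYOG-high cells of both passages, whereas MYMK had one in 64.3% and 69.9%, MYH3 in 58.4% and 71.2%, ACTA1 in 34.6% and 35.6% and CKM in 22.2% and 17.2%, at passages 2 and 5. In FAPs ACTC1 had a UMI in 23.8% and 23.0% and CDKN1C in 20.7% and 12.1% of thinned cells, below the 52.0% and 54.4% and the 50.6% and 51.7% of MYOG-low cells. For ACTA1 the FAP shares were 2.09% and 2.81%, and they were close to those of MYOG-low cells, 2.17% and 2.89%, so ACTA1 in MYOG-low cells did not exceed background. Before thinning ACTA1 had a UMI in 40.3% and 41.5% of MYOG-high cells.

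Over finer classes of MYOG UMIs the genes took different courses. The classes 0 to 1, 2 to 4, 5 to 9, 10 to 19 and 20 or more held 5724, 122, 102, 94 and 273 cells, and levels here are CPM without TMM scaling, as a description. ACTC1 was at 981, 4847, 4887, 8091 and 12276 CPM, and CDKN1C at 240, 949, 1379, 2174 and 4867. In cells with 2 to 4 UMIs CDKN1C was above the MYOG-low level in all 6 cultures and ACTC1 in 5 of 6, donor 5 at passage 5 having 576 CPM of ACTC1 against 702. ACTA1 was at 2.52, 3.30, 4.00, 85.3 and 1436 and CKM at 0.450, 0.367, 0.890, 10.8 and 208. Of the 206 ACTA1 counts of the class of 10 to 19 UMIs 190 came from donor 10 at passage 5 and 16 from donor 5 at passage 2, and the other 4 cultures had 0. ACTA1 was above its MYOG-low level in all 6 cultures only at 20 or more UMIs, with 548 to 2892 CPM. MYOD1 was at 106, 258, 345, 340 and 300 in the sums, with single cultures taking different courses beyond 5 UMIs: in donor 5 at passage 5 it was at 210, 234 and 328 CPM in the last 3 classes, in donor 5 at passage 2 at 370, 351 and 277. MYF5 was at 172, 135, 76.1, 68.7 and 24.9. Cells just inside the upper limit (10 to 12 UMIs, 32 cells) and just outside it (7 to 9 UMIs, 54 cells) had 171 and 53.1 CPM of MYH3. Other genes stepped less there. ACTC1 was at 7779 and 5358 CPM, CDKN1C at 2002 and 1369 and NEB at 962 and 802, while MYOD1 was lower inside the limit, at 347 and 407. Cells with 1 UMI (467 cells) and 2 UMIs (73 cells) had 8.62 and 33.3 CPM of MYH3.

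**Figure D5:**
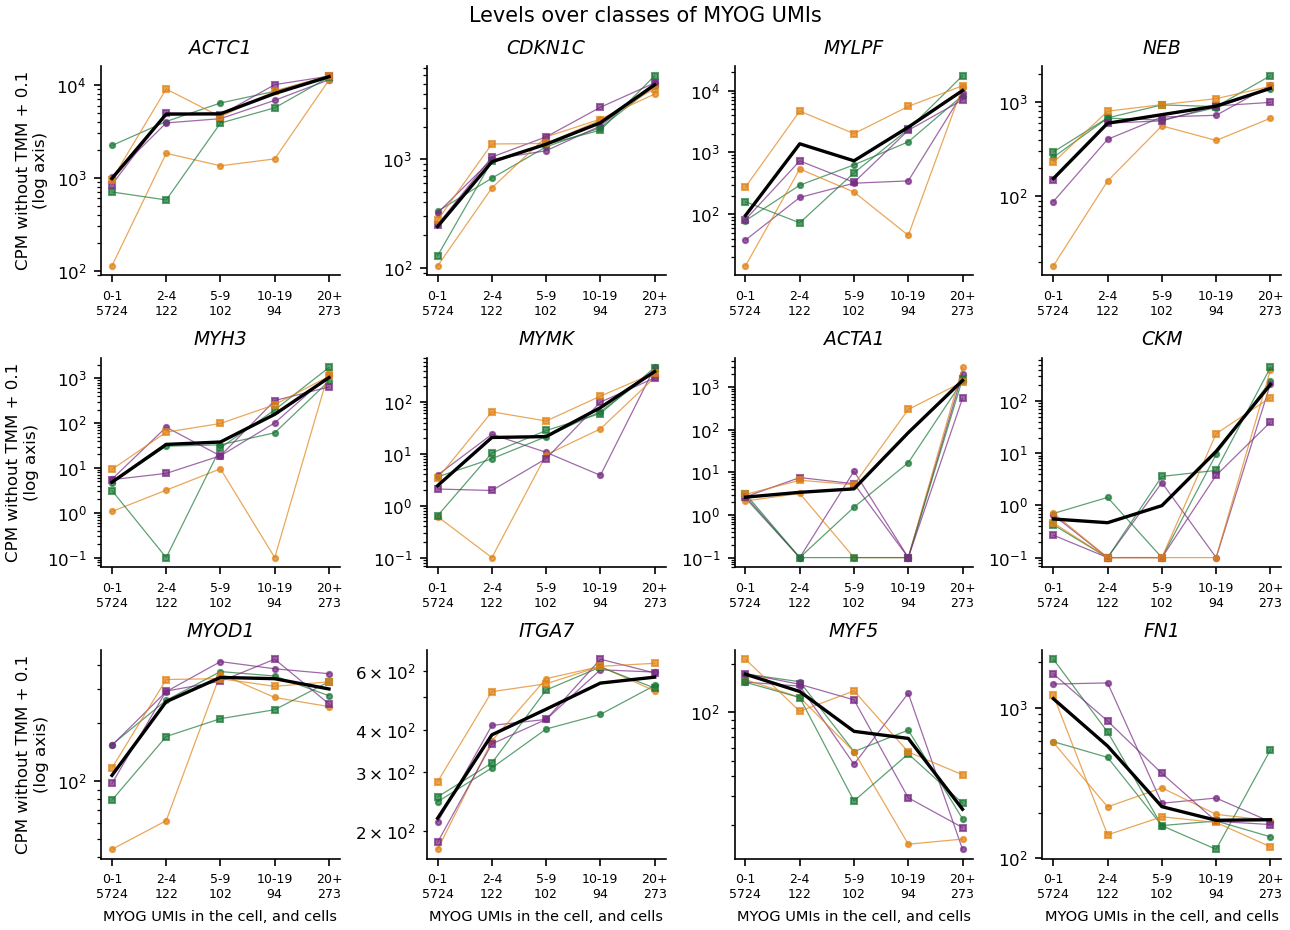
Levels of 12 genes (CPM without TMM scaling + 0.1, log axis) over 5 classes of MYOG UMIs per cell, with the number of cells under each class; the black line sums all 6 cultures and thin lines are single cultures, colored by donor (green 5, purple 6, orange 10; circles passage 2, squares passage 5). In the summed line ACTC1 and CDKN1C are higher in the second class than in the first, and ACTA1 and CKM lie highest at 20 or more UMIs; ACTA1 in the class of 10 to 19 UMIs comes mostly from donor 10 at passage 5 (190 of 206 counts).

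The next question was whether the difference itself changed from passage 2 to passage 5. The interaction of class and passage called 4 of 10433 genes (0.0383%), each with a lower log2FC at passage 5, and 726 genes had an unadjusted p below 0.05. C1QTNF3, a secreted C1q and TNF-related protein, had a log2FC of -0.84 at passage 2 and -3.0 at passage 5 (difference -2.19, SE 0.31, adjusted p = 0.00173 in edgeR). SFRP1 went from -3.18 to -5.63 (difference -2.47, SE 0.39, adjusted p = 0.00965), SERPINF1, a secreted serpin, from -0.42 to -1.68 (difference -1.28, SE 0.23) and MEOX1, a homeobox factor of the somite, from 0.40 to -2.18 (difference -2.62, SE 0.50). In MYOG-low cells the level of MEOX1 was 4.04 to 13.5 CPM at passage 2 and 12.7 to 44.4 CPM at passage 5, while MYOG-high cells had 4.96 to 9.68 and 1.40 to 11.3 CPM. Without the block none of these was called in the interaction, where 466 genes had an unadjusted p below 0.05. With donor 10, 5 or 6 left out the interaction called 20, 29 and 33 genes, of which 2, 6 and 4 had a higher log2FC at passage 5.

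The same limits were then applied to SCs of donors 1, 2 and 9, whose cultures had not been sorted and which the rule had not used. They gave 77 MYOG-high and 972 MYOG-low cells, summed over both passages into 3 pairs with 55, 9 and 13 MYOG-high cells. The passages were not balanced between the classes: donors 1, 2 and 9 gave 7, 5 and 3 MYOG-high cells at passage 2 and 48, 4 and 10 at passage 5, against 214, 114 and 168 and then 299, 46 and 131 MYOG-low cells. In these sums class is therefore mixed with passage and library, and the part of passage in the values of these donors was not tested. Of 8750 genes tested, 967 (11.1%) were called higher and 1286 (14.7%) lower. These donors were females, adults apart from the calf donor 2, and their cells were grown on fibronectin in the same medium, so they shared the libraries but not the animals, the sort or the coating. Of the 802 genes called higher in the sorted cultures 620 were tested in both, and 531 of them (85.6%) were also called higher in the unsorted cultures, which is 56.2% of the 945 genes called there and tested in both. Of the 1192 called lower 885 were tested in both, and 612 (69.2%) were called lower in the unsorted cultures, which is 48.5% of 1263. None was called in the opposite direction. Genes that pass the filter only through 1 class could be called in 1 direction only, and they were not taken out of these counts.

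Side by side, the log2FC in the unsorted cultures was 10.18 (SE 0.23) for MYH3, 8.12 (SE 0.30) for MYMK, 7.06 (SE 0.44) for MEF2C, 5.24 (SE 0.79) for CDKN1C and 2.66 (SE 0.21) for MYOD1. It was -1.94 (SE 0.38) for MYF5, -3.27 (SE 0.61) for NOTCH3, -2.72 (SE 0.22) for FN1, -3.68 (SE 0.35) for INHBA and -4.52 (SE 0.41) for SFRP1. All of these were called, but a gene that passes the filter only through 1 class could be called in 1 direction only. Such genes were not taken out here either. MKI67 (log2FC -0.79, SE 0.37, adjusted p = 0.114 in edgeR) and TOP2A (-0.86, SE 0.44) were not called there, and of 32 mitosis genes tested 2 fell and none rose, with a median of -0.59. Over all 8750 genes tested there 14.7% were called lower and 11.1% higher. Of the FAP markers 0 of 6 tested were called there, with DCN at -2.48 (SE 1.18, adjusted p = 0.27) and THY1 at -0.59 (SE 0.91), and CD151 was again not called (log2FC -0.04, SE 0.18). Whether the sorted and unsorted cultures differ in any of these was not tested.

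At passage 0 only 1 of 2282 SCs had 10 or more MYOG UMIs, so the planned comparison there and its contrast with later passages could not be fitted.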

How the data were processed

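The authors sequenced pooled cells of bovine donors on the 10x Chromium 3′ platform, aligned reads with Cell Ranger 6.0.1 to genome build ARS-UCD1.2 and assigned donors with demuxlet. Raw UMI counts of each gene in each barcode are what the deposited matrices contain (21880 genes, 16828 with a symbol, 68 symbols standing for several genes). Donor, cell type label, cell cycle call and percent mitochondrial UMIs come from the cell table the authors deposited; 8 of its columns were not used. Matrix totals equaled the deposited totals in 91.3% of the cells and differed by at most 6 UMIs. Only singlets that passed the authors' quality control were used, and demuxlet cannot find doublets of 1 donor. The members and gene lists were chosen with earlier results of these data known.

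Counts were summed per class, donor and passage (at least 10 cells; 5 in unsorted cultures, a comparison added after seeing the data) and tested 2-sided in edgeR 4.0.16 (quasi-likelihood F test, robust, TMM, filterByExpr) with the pair as a block, which follows the design: both sums of a pair come from the same culture and library, and their deviations from the class means correlated at 0.25 to 0.48. The interaction test adds class by passage. SE was taken as |log2FC| over the root of F. DESeq2 1.42.0 was an alternative. The fits were also run on simulated counts without donor or pair effects, whose outcome is not reported here. That run could not test the block or the use of 2 passages of an animal as separate pairs. Named genes are the 10 largest changes in each direction among genes called and moving alike in all pairs, up to 4 called members per list, a fixed set of myogenic, cell cycle and surface genes, and up to 5 genes per interaction; exceptions are marked. MYOG was left out of all tests. The filter asked for a minimum level in as many sums as 1 class held, so a gene rare in 1 class could pass through the other alone. A mean below 1 CPM does not mark all such genes. Counting intervals and floors cover counting error only. Some items that these rules name are not reported here. No coordinates or sequences are given. Other passages, tissue and the remaining cell types were not analysed here.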

Additional observations from a re-analysis of the deposited data

Results flagged for a closer look

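The difference between MYOG-high and MYOG-low SCs differed between passage 5 and passage 2 for 4 genes by the interaction test in edgeR, each with a lower log2FC at passage 5. The change was -2.19 for C1QTNF3, -2.47 for SFRP1, -1.28 for SERPINF1 and -2.62 for MEOX1. Each passage was 1 count matrix. The log2FC of the 6 pairs were also searched for a pair far from the others, in 94 sets of values, and none stood apart by Dixon's criterion.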

How the results depend on the processing

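The 802 genes higher and 1192 lower became 510 and 657 when the larger sum of each pair was thinned to the total of the smaller. In that setting 7396 genes were tested. Under the other settings counts stayed within 1.5 times, at 797 and 1192 without the replicate block, 767 and 1235 in DESeq2, 1123 and 1600 without the filter, and 747 to 856 and 1071 to 1307 when a pair or donor was left out. The paired interaction of class and passage called 48 genes without the filter (4 of them with a higher log2FC at passage 5), 0 without the replicate block and 20 to 33 without 1 donor (2 to 6 higher); the cause was not tested. In the unsorted cultures the genes lower, 1286, ranged from 781 without donor 1 to 1578, and those higher from 770 to 1130. The G1 difference stayed between 22.8 and 27.4 points without 1 pair and was 25.1 within the depth range of the MYOG-high cells, with 5 pairs in each (exact sign-flip permutation test, p = 0.0625, the smallest that 5 pairs can give). CD151 (log2FC 0.0517) and MEOX1 (0.405) changed sign in passage 2 alone, where 4 of 10 committed genes were called higher and of 19 thin filament genes 9 were called higher and 1 lower, with medians of 4.59 and 4.62. Of 2223 values of 91 named genes, 2176 kept direction and side of the threshold, 42 lost it, 3 gained it and 2 changed sign. Classes of 10 to 127 cells limit the precision of rare genes, and the 6 pairs come from 3 animals.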
